A study of Oreochromis niloticus with 6 samples.

Results

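The conjugating enzymes of the glutathione S-transferase (GST), UDP-glycosyltransferase (UGT) and cytosolic sulfotransferase (SULT) families were examined in liver RNA of GIFT, a farmed strain of Nile tilapia (Oreochromis niloticus). A locus was counted as a member when its gene name began with gst, mgst, ugt plus a digit or sult plus a digit and its value was above 0 in at least 1 library, which gave 34 of 31872 loci. The GST family had 16 members, the UGT family 10 and the SULT family 8. Together they carried 25 gene names, since gstr, gstt1a, ugt5d1, ugt8 and sult3st1 each stood on more than 1 locus. These names were assigned by the annotation of the deposited table, mostly after zebrafish genes, and loci under one name may share reads. Such loci are called copies here, although they may be parts of the same gene, which was not tested.

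The libraries came from fish held for 96 h in tanks whose dissolved oxygen (DO) had been lowered with nitrogen gas (hypoxic stress group, HG; 0.7 to 0.8 mg/L by the sample labels, n = 3 libraries) and from fish kept at 5 mg/L (control group, CG, n = 3 libraries). All fish were of the same strain and were fasted before the experiment, and their age was not given in the sources used here. The paper describes the hypoxic level as the median lethal level over 96 h and gives a DO value that differs from the labels, so the labels are followed here. The paper calls the 3 libraries of a group biological replicates and describes 3 tanks for each group. Neither source says whether a library holds 1 fish or a pool. The p-values therefore measure the spread between libraries, which may be partly technical. The values are FPKM (fragments scaled by transcript length in kilobases and by the mapped fragments of the library). This scaling does not remove differences in the RNA make-up of the libraries. Because RNA of whole liver was measured, fewer cells of a type and less RNA per cell cannot be told apart.

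These families carry out the conjugation step of detoxification. A GST joins glutathione to a reactive compound, a UGT joins a sugar, often glucuronic acid, to an alcohol, phenol or acid, and a SULT transfers a sulfate group to phenols and steroids. The products are more soluble in water and can leave the hepatocyte through transporters for bile or blood. In liver the same enzymes handle bile pigments, steroid and thyroid hormones and products of lipid peroxidation, and many of their genes respond to the aryl hydrocarbon receptor or to NRF2, the regulator of the antioxidant response.

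In HG livers 12 members of these families were higher than in CG livers, 1 was lower and 15 did not pass the test, of 28 whose mean FPKM reached 1. These are counts of loci: the 12 include 2 loci named gstt1a and 3 named ugt5d1, so they stand for fewer gene names. A member was called higher or lower when the limma p, adjusted by the Benjamini-Hochberg method over all 16423 loci that reached this minimum, was under 0.05. Of all those loci, 8.27% were called higher and 12.1% lower, so the members' share of higher calls (42.9%) stood above the background and their lower call did not. The members were chosen with earlier results of these data known, so this comparison is a description. The background also depends on level: with a minimum mean of 10 FPKM, 634 of 3319 loci were higher, beside 9 of 17 members. Changes are given as log2 fold changes (log2FC) of FPKM + 1, HG minus CG, with the standard error (SE). The median log2FC of the 28 members was 0.89, against -0.14 for all tested loci, and the values ran from -1.0 to 3.38. In 15 members all HG libraries lay above all CG libraries and in 1 they lay below, while 12 overlapped. Over all tested loci, 16.5% had every HG library above every CG library and 27.0% every HG library below. Among the tested members, sult2st2 and gstm.1 reached the minimum only through their HG values, so their entry into the test was itself tied to the difference. The 6 members that were not tested were gstcd, the second ugt8 locus, sult6b1, sult5a1, sult2st3 and sult4a1.

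The count of higher members was 6 without HG replicate 3 and 7 without CG replicate 1. Over all tested loci the count of higher calls was 822 and 882 in these refits, against 1359 with all libraries. A linear model in the manner of Ballgown called none of all tested loci. Its covariate was the sum of each library's log2 values below their upper quartile. The lowest adjusted p among the members was 0.13 in this model. At an unadjusted p under 0.05 it had 8 of 28 members and 2618 of all 16423 tested loci.

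**Figure D1:**
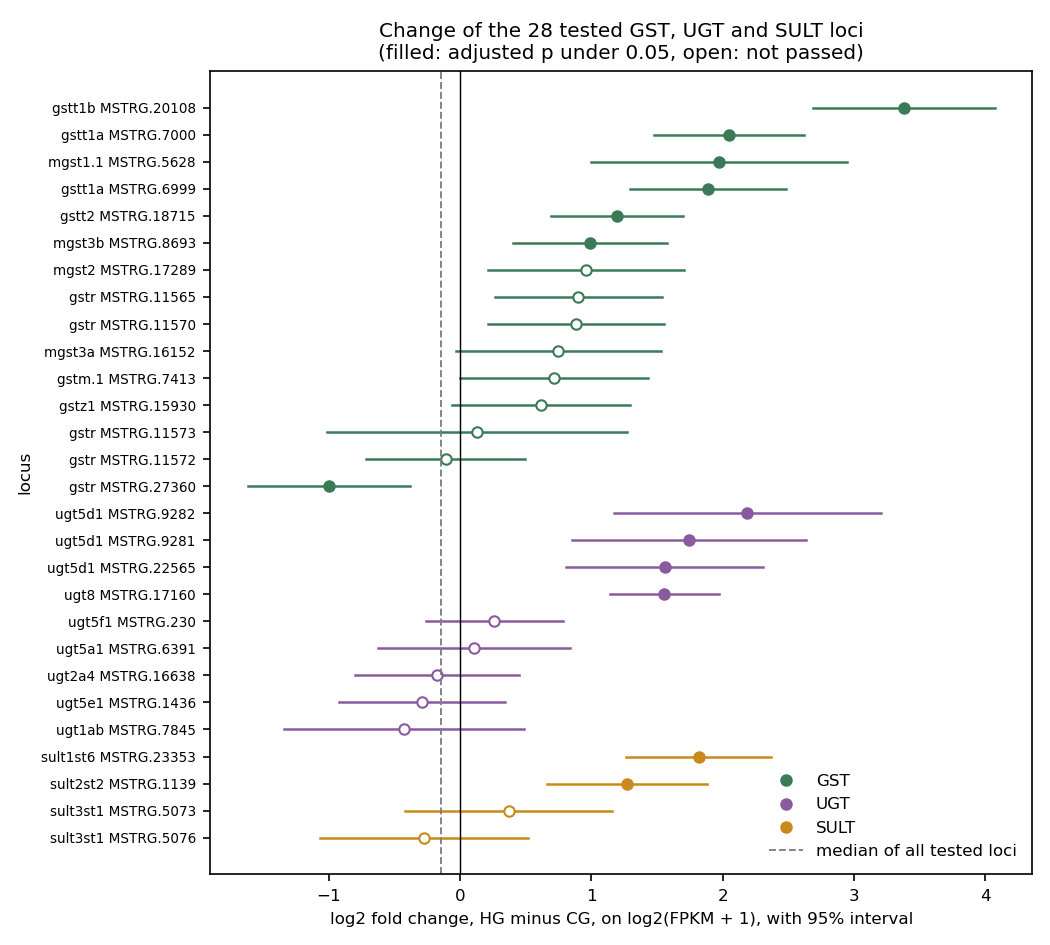
Log2 fold change (HG minus CG, on log2(FPKM + 1)) of each of the 28 tested GST, UGT and SULT loci with its 95% interval from limma. Filled points had an adjusted p under 0.05, open points did not, and the dashed line is the median of all 16423 tested loci (-0.14). The points of the 4 gstt loci, the 3 ugt5d1 loci, mgst1.1, ugt8, sult1st6 and sult2st2 lie to the right, between 1.19 and 3.38. The locus gstr MSTRG.27360 alone is a filled point on the left (-1.0).

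The theta class of GST was higher throughout. All 4 gstt loci were called higher, by log2FC of 1.19 to 3.38, and in each of them the HG and CG libraries did not overlap. Theta-class enzymes act on small halogenated compounds and organic hydroperoxides in mammals. The most abundant member, gstt1a (MSTRG.7000), had 438, 383 and 444 FPKM in HG livers, against 107, 125 and 77.2 FPKM in CG livers. The lowest HG library was thus above the highest CG library by a wide margin, and log2FC was 2.05 (SE 0.24, adjusted p = 0.00318 from limma). Ordered by FPKM among all loci of a library, this gene stood at ranks 180 to 193 in HG and at ranks 424 to 610 in CG.

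The second gstt1a locus (MSTRG.6999) had 15.8, 18.1 and 17.6 FPKM in HG, against 5.42, 3.98 and 2.67 FPKM in CG, a log2FC of 1.89 (SE 0.25, adjusted p = 0.00452 from limma). Its 3 HG values were close together and all above CG. Within a library, MSTRG.7000 was 21.2 to 27.8 times as high as MSTRG.6999 in HG and 19.7 to 31.4 times in CG, so the ratio of the copies overlapped between the groups although each copy was higher in HG.

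gstt1b (MSTRG.20108), a paralog of gstt1a, had 284, 332 and 388 FPKM in HG livers, against 21.6, 41.8 and 32.8 FPKM in CG livers. It stood at ranks 198 to 246 in HG and 928 to 1843 in CG, and its log2FC of 3.38 (SE 0.29, adjusted p = 0.00144 from limma) was the largest of the 28 tested members. The ratio of gstt1b to gstt1a (MSTRG.7000) in a library was 0.65 to 0.87 in HG and 0.20 to 0.42 in CG, which shows that gstt1b approached the level of gstt1a in HG. gstt2 (MSTRG.18715), the other theta-class gene, had 44.3, 42.6 and 52.4 FPKM in HG and 17.6, 22.9 and 18.9 FPKM in CG, a log2FC of 1.19 (SE 0.21, adjusted p = 0.0115 from limma). It showed the smallest change of the class and no overlap. Leaving out any single library ended none of these 4 calls.

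The microsomal GSTs, membrane proteins that are not related in sequence to the cytosolic classes, were partly higher: 2 of 4 loci passed. mgst1.1 (MSTRG.5628), whose mammalian counterpart conjugates glutathione and reduces lipid hydroperoxides, had 84.9, 152 and 153 FPKM in HG, against 29.7, 51.6 and 19.6 FPKM in CG. HG-1 was the lowest HG library and still lay above CG-2, the highest CG library, and log2FC was 1.97 (SE 0.41, adjusted p = 0.0196 from limma). The adjusted p of mgst1.1 was 0.0626 without HG replicate 2, 0.0648 without HG replicate 3 and 0.0609 without CG replicate 1, which ended the call.

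mgst3b (MSTRG.8693) had 46.0, 36.7 and 58.2 FPKM in HG and 21.2, 26.7 and 20.9 FPKM in CG, a log2FC of 0.99 (SE 0.25, adjusted p = 0.0344 from limma). The groups did not overlap, but the call was lost without HG replicate 1 (0.102), HG replicate 3 (0.0872), CG replicate 1 (0.0802), CG replicate 2 (0.0540) or CG replicate 3 (0.0834), given here as adjusted p. mgst2 (MSTRG.17289), related to the synthesis of leukotriene C4 in mammals, had 14.1, 17.1 and 15.3 FPKM in HG and 11.0, 4.45 and 8.26 FPKM in CG without overlap, and did not pass (log2FC 0.96, adjusted p = 0.074 from limma). It passed under median-of-ratios scaling (adjusted p = 0.0353). mgst3a (MSTRG.16152) overlapped, with 6.69 to 16.2 FPKM in HG and 5.20 to 7.42 FPKM in CG. Its adjusted p was 0.15 over all libraries and 0.0457 without HG replicate 2.

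In the rho class, gstr, which is known from fish, 1 of 5 loci was lower, 4 did not pass and none was higher. The most abundant copy, MSTRG.27360, had 94.2, 122 and 75.3 FPKM in HG livers, against 169, 233 and 180 FPKM in CG livers. Every HG library was below every CG library, and log2FC was -1.0 (SE 0.26, adjusted p = 0.0384 from limma). This gene was the most abundant GST locus in each CG library, at ranks 278 to 348, and stood at ranks 416 to 627 in HG.

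The lower call of MSTRG.27360 was lost under median-of-ratios scaling (log2FC -0.79, adjusted p = 0.102) and quantile normalization (adjusted p = 0.0511), and without any one of HG replicate 1 (0.115), HG replicate 3 (0.0987), CG replicate 1 (0.0617), CG replicate 2 (0.0951) or CG replicate 3 (0.0745), while its sign stayed negative under all 16 refits. A second gstr copy, MSTRG.11565, had 45.9, 52.8 and 33.3 FPKM in HG, against 27.7, 23.1 and 18.2 FPKM in CG. It was above CG in all HG libraries and did not pass (log2FC 0.90, SE 0.27, adjusted p = 0.0558 from limma), although it passed under median-of-ratios scaling (adjusted p = 0.0321).

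Set against each other in the same library, which removes any common scaling, MSTRG.11565 was 0.49, 0.43 and 0.44 times MSTRG.27360 in HG and 0.16, 0.099 and 0.10 times in CG. The range of this ratio did not overlap between the groups. The pair was chosen after its values were seen, so this is a description. The remaining gstr copies were lower in level. MSTRG.11570 had 3.03 to 5.42 FPKM in HG and 1.23 to 2.83 FPKM in CG (adjusted p = 0.0692 from limma), without overlap. MSTRG.11572 had 14.8 to 17.4 FPKM in HG and 12.6 to 22.2 FPKM in CG, and MSTRG.11573 had 0.87 to 1.86 FPKM in HG and 0.48 to 3.66 FPKM in CG; both overlapped.

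**Figure D2:**
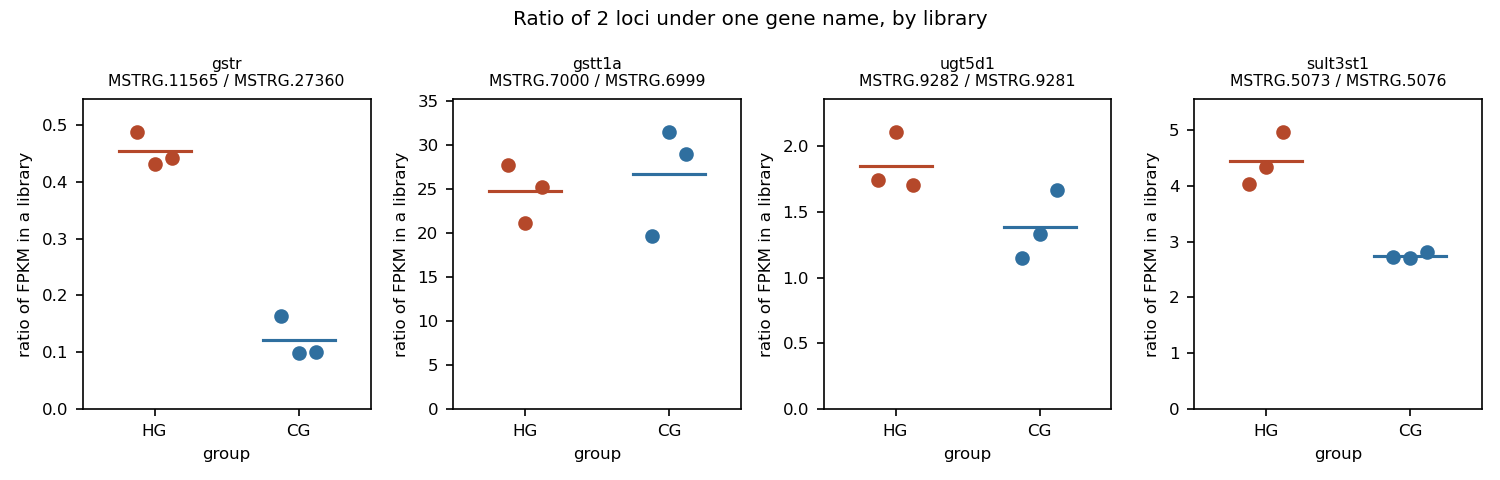
Ratio of the FPKM of 2 loci that carry the same gene name, in each HG library (left in each panel) and each CG library (right), with the group mean as a line and the vertical axis starting at 0. The gstr ratio lies at 0.43 to 0.49 in HG and at 0.099 to 0.16 in CG and the sult3st1 ratio at 4.03 to 4.96 in HG and at 2.70 to 2.82 in CG, while the gstt1a ratios overlap.

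The other GST members did not pass. gstz1 (MSTRG.15930), the zeta-class enzyme that acts as maleylacetoacetate isomerase in tyrosine breakdown, had 38.5 to 49.1 FPKM in HG and 22.1 to 41.5 FPKM in CG (log2FC 0.62, adjusted p = 0.169 from limma). gstm.1 (MSTRG.7413), of the mu class, was low, with 1.24 to 3.18 FPKM in HG and 0.61 to 1.31 FPKM in CG. gstcd (MSTRG.15000), named for a GST-like C-terminal domain, was at 0.098 to 0.48 FPKM in HG and 0.27 to 0.34 FPKM in CG and was not tested.

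The make-up of the GST family differed between the groups. Its summed level was 1150, 1226 and 1327 FPKM in HG and 456, 604 and 436 FPKM in CG, a ratio of the means of 2.48. The theta class made up 68.1, 63.2 and 68.0% of it in HG and 33.2, 32.1 and 30.2% in CG. The rho class made up 13.9, 16.1 and 9.93% in HG and 46.2, 46.0 and 51.9% in CG. The class with the largest share was thus theta in every HG library and rho in every CG library. The microsomal loci held 13.7 to 18.3% in HG and 12.6 to 14.9% in CG. Without the gstt1a and gstt1b loci the summed GST level was 411 to 494 FPKM in HG and 322 to 434 FPKM in CG, and the groups overlapped.

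**Figure D3:**
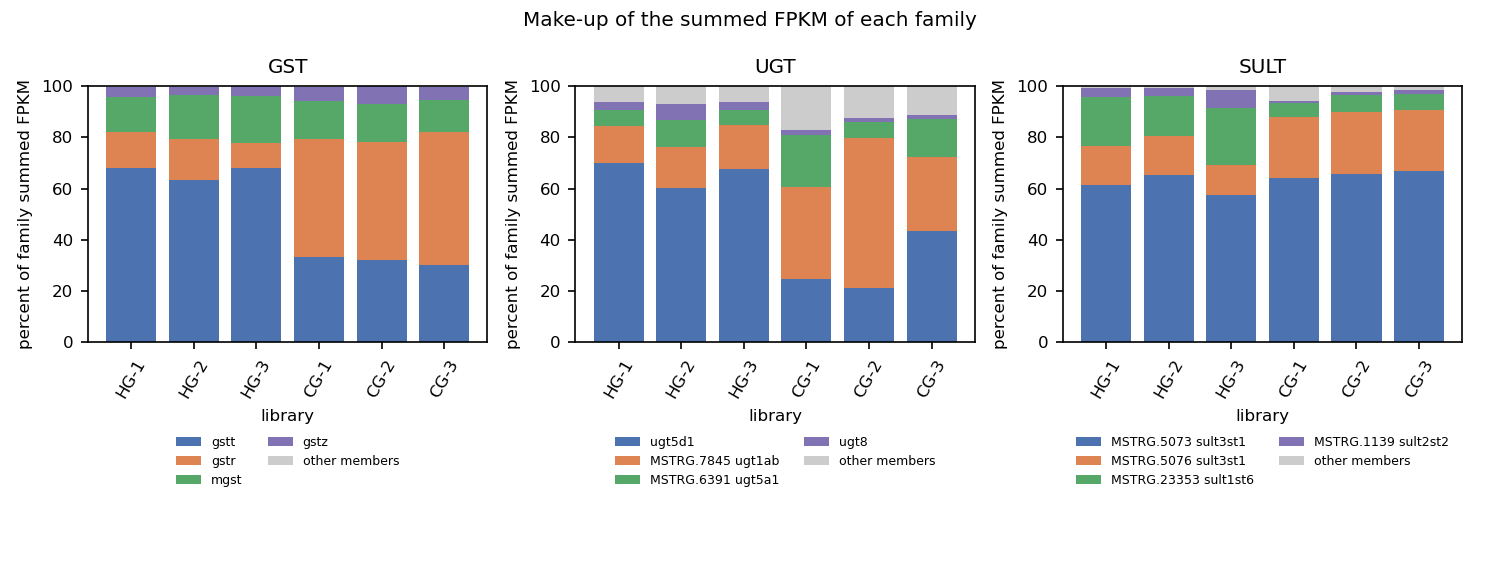
Share of each family's summed FPKM, in percent, by class or locus in each of the 6 libraries (HG left, CG right of each panel). The gstt part of the GST column is 63.2 to 68.1% in HG and 30.2 to 33.2% in CG, the ugt5d1 part of the UGT column is 60.3 to 70.0% in HG and 21.4 to 43.3% in CG, and sult1st6 takes 15.8 to 22.4% of SULT in HG and 5.35 to 6.54% in CG.

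In the UGT family 4 of 9 tested loci were higher and none was lower, with a median log2FC of 0.26. The higher loci were the 3 copies of ugt5d1 and ugt8. The UGT5 genes form a family described in fish, which zebrafish also carries in several copies and whose enzymes can glucuronidate foreign compounds. The most abundant copy, ugt5d1 MSTRG.9282, had 81.9, 48.5 and 69.4 FPKM in HG livers, against 7.89, 12.1 and 25.2 FPKM in CG livers. No HG library came as low as the highest CG library, and log2FC was 2.19 (SE 0.43, adjusted p = 0.0157 from limma).

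Another ugt5d1 copy, MSTRG.9281, had 47.0, 23.0 and 40.6 FPKM in HG and 6.84, 9.05 and 15.1 FPKM in CG, a log2FC of 1.75 (SE 0.38, adjusted p = 0.0214 from limma). The least abundant copy, MSTRG.22565, had 11.5, 5.54 and 9.07 FPKM in HG and 1.65, 1.80 and 3.36 FPKM in CG, a log2FC of 1.56 (SE 0.32, adjusted p = 0.0183 from limma). All 3 copies had the same order of libraries, with HG-1 above HG-3 above HG-2 and CG-3 above CG-2 above CG-1. The values of the copies may therefore not be independent of each other, which was not tested. The ratio of MSTRG.9282 to MSTRG.9281 was 1.71 to 2.11 in HG and 1.15 to 1.66 in CG.

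The 3 ugt5d1 calls were sensitive to single libraries. Without HG replicate 1 the adjusted p was 0.0626 for MSTRG.9282, 0.0773 for MSTRG.9281 and 0.0642 for MSTRG.22565, and without HG replicate 3 it was 0.0548, 0.0698 and 0.0622 in the same order of loci. MSTRG.9281 and MSTRG.22565 also lost their calls without CG replicate 1 (0.0630 and 0.0617) or CG replicate 2 (0.0614 and 0.0575). The count of higher UGT loci was then 1 without HG replicate 1 or HG replicate 3 and 2 without CG replicate 1 or CG replicate 2.

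The call of ugt8 (MSTRG.17160) did not depend on any single library. The mammalian enzyme of this name transfers galactose to ceramide in the synthesis of myelin lipids, and differs in that from the glucuronidating UGTs. It was low in level, with 5.28, 6.01 and 4.86 FPKM in HG and 1.07, 1.30 and 1.13 FPKM in CG. Each group spanned a narrow range and they did not overlap, with a log2FC of 1.56 (SE 0.18, adjusted p = 0.00282 from limma). The second ugt8 locus (MSTRG.17161) had 0.83, 1.99 and 0.61 FPKM in HG and 0.26, 0.30 and 0.64 FPKM in CG, overlapped, and was below the minimum for testing. MSTRG.17161 carried a KEGG orthology entry in the deposited annotation and MSTRG.17160 did not.

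The UGT1 and UGT2 members did not pass. ugt1ab (MSTRG.7845), of the family that conjugates bilirubin in mammals, had 29.0, 20.4 and 29.9 FPKM in HG, against 24.0, 62.6 and 29.3 FPKM in CG. CG-2 stood far above the other libraries, the groups overlapped, and the 95% interval of the log2FC of -0.43 reached from -1.34 to 0.49 (adjusted p = 0.463 from limma). ugt2a4 (MSTRG.16638) had 0.94 to 2.04 FPKM in HG and 1.40 to 2.44 FPKM in CG.

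The other UGT5 members differed from ugt5d1 in that none passed and all overlapped. ugt5a1 (MSTRG.6391) had 10.5 to 13.2 FPKM in HG and 6.85 to 14.9 FPKM in CG. ugt5e1 (MSTRG.1436) had 4.49 to 7.75 FPKM in HG and 6.08 to 9.85 FPKM in CG. ugt5f1 (MSTRG.230) had 2.57 to 3.08 FPKM in HG and 1.57 to 2.97 FPKM in CG. The differences between these changes and those of ugt5d1 were not tested.

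The summed UGT level was 201, 128 and 176 FPKM in HG and 66.6, 107 and 101 FPKM in CG, a ratio of the means of 1.83. The 3 ugt5d1 loci made up 60.3 to 70.0% of it in HG and 21.4 to 43.3% in CG, and ugt1ab made up 14.4 to 17.0% in HG and 29.0 to 58.3% in CG. ugt1ab was the most abundant UGT locus in each CG library and ugt5d1 MSTRG.9282 in each HG library.

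**Figure D4:**
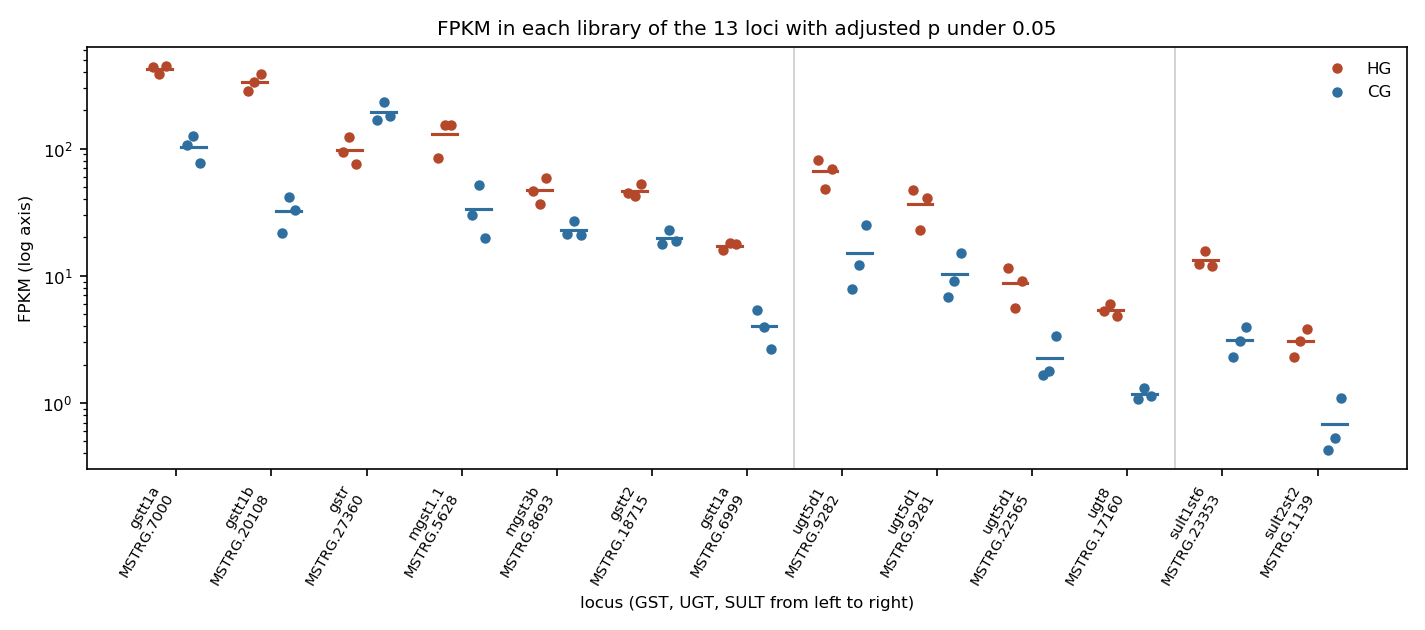
FPKM (log axis) of the 13 loci with an adjusted p under 0.05, with 1 point per library, HG left of CG for each locus, and the group mean as a line. In 12 loci all HG points lie above the CG points, and in gstr MSTRG.27360 the HG points (75.3 to 122 FPKM) lie below the CG points (169 to 233 FPKM).

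In the SULT family 2 of 4 tested loci were higher, sult1st6 and sult2st2, and the abundant sult3st1 copies did not pass. sult1st6 (MSTRG.23353) belongs to the SULT1 group, whose zebrafish members sulfate phenols and thyroid hormones. It had 12.3, 15.8 and 12.0 FPKM in HG livers, against 2.29, 3.06 and 3.97 FPKM in CG livers. The groups did not overlap, and log2FC was 1.82 (SE 0.23, adjusted p = 0.00402 from limma), a call that no single library decided.

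sult2st2 (MSTRG.1139), of the SULT2 group that sulfates hydroxysteroids, had 2.29, 3.07 and 3.81 FPKM in HG and 0.43, 0.53 and 1.10 FPKM in CG, a log2FC of 1.27 (SE 0.26, adjusted p = 0.0179 from limma). It was low in all libraries and did not overlap. It reached the minimum FPKM only through its HG values, so its entry into the test was tied to the difference. Its adjusted p was 0.0619 without HG replicate 3, 0.0503 without CG replicate 1 and 0.0506 without CG replicate 2. Each of these left sult1st6 as the 1 SULT locus called higher.

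Both sult3st1 loci overlapped between the groups. MSTRG.5073 had 39.5, 65.3 and 30.8 FPKM in HG, against 27.5, 30.7 and 42.8 FPKM in CG (log2FC 0.37, adjusted p = 0.461 from limma). MSTRG.5076 had 9.78, 15.1 and 6.20 FPKM in HG, against 10.1, 11.3 and 15.2 FPKM in CG (log2FC -0.28, adjusted p = 0.586 from limma). Both copies were highest in HG-2 and lowest in HG-3, and in CG both were highest in CG-3. The ratio of the first to the second was 4.03 to 4.96 in HG and 2.70 to 2.82 in CG, again without overlap, for a pair chosen after its values were seen.

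The other 4 SULT members had a mean FPKM under 1 and were not tested. sult5a1 (MSTRG.8139) was at 0.18, 0.047 and 0.040 FPKM in HG and 0.64, 0.52 and 0.58 FPKM in CG, so that all HG libraries were below all CG libraries. sult6b1 (MSTRG.18962) overlapped, with 0.22 to 0.81 FPKM in HG and 0.34 to 1.82 FPKM in CG. sult4a1, which is expressed in the nervous system in mammals, was listed at 0 in all libraries but HG-2, and sult2st3 was listed at 0 in all libraries but CG-2.

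The summed SULT level was 64.2, 100 and 53.5 FPKM in HG and 42.7, 46.8 and 64.0 FPKM in CG and overlapped between the groups. The sult3st1 loci held 69.0 to 80.3% of it in HG and 87.9 to 90.7% in CG, and sult1st6 held 15.8 to 22.4% in HG and 5.35 to 6.54% in CG. Across the 3 families, the summed level was therefore apart between HG and CG for GST and UGT and not for SULT. The GST sum overlapped without gstt1a and gstt1b. In UGT the 3 ugt5d1 loci alone summed to 77.0 to 140 FPKM in HG and 16.4 to 43.7 FPKM in CG. Besides these only ugt8 passed in that family.

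The genes that supply the co-substrates gave few calls. Counts in the lists of related genes stand beside the 8.27% higher and 12.1% lower calls of all tested loci, and the shares of higher loci in glutathione synthesis (9.09%), deconjugation (13.3%) and efflux (13.3%) were near that level. Of 11 tested loci of glutathione synthesis and turnover, 1 was higher and 1 lower. The higher gene was oplah (MSTRG.6071), 5-oxoprolinase of the glutathione cycle, with 2.53, 5.0 and 2.79 FPKM in HG and 0.15, 1.13 and 0.56 FPKM in CG (log2FC 1.46, SE 0.33, adjusted p = 0.0238 from limma). The lower gene was chac1 (MSTRG.3311), which degrades glutathione in mammals, with 38.8, 21.7 and 36.9 FPKM in HG and 103, 82.1 and 77.8 FPKM in CG (log2FC -1.44, SE 0.29, adjusted p = 0.0166 from limma). In both loci the groups did not overlap. Like sult2st2, oplah reached the minimum FPKM only through its HG values, so its entry into the test was tied to the difference. A second chac1 locus (MSTRG.10327) overlapped, with 4.98 to 8.01 FPKM in HG and 3.39 to 9.82 FPKM in CG (adjusted p = 0.887).

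No locus passed among 7 of UDP-glucuronic acid supply or 6 of PAPS supply, PAPS being the sulfate donor of SULT. At an unadjusted limma p under 0.05 there were 0 and 1 such loci, beside 6016 of all 16423 tested loci. Every HG library lay below every CG library in 3 of the 7 UDP-glucuronic acid loci and above in 1. In the PAPS list it was 1 of 6 each way. Over all tested loci these shares were 27.0% and 16.5%. The UDP-glucuronic acid list summed to 497 to 710 FPKM in HG and 727 to 784 FPKM in CG, without overlap. Its most abundant locus, ugp2a (MSTRG.25839), had 658, 476 and 445 FPKM in HG and 678, 703 and 677 FPKM in CG. ugdh (MSTRG.14937), which makes UDP-glucuronic acid and is given here for its role after its values were seen, had 3.82, 8.78 and 4.88 FPKM in HG and 9.11, 4.72 and 3.78 FPKM in CG and overlapped.

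Methyltransferases, another kind of conjugating enzyme, were higher in 3 of 5 tested loci with none lower. The TPMT locus (MSTRG.9735), named for thiopurine S-methyltransferase, had 24.3, 21.7 and 23.2 FPKM in HG and 0.95, 1.48 and 0.85 FPKM in CG (log2FC 3.53, SE 0.20, adjusted p = 0.000811 from limma). The HNMT locus (MSTRG.7841), named for histamine N-methyltransferase, had 19.6, 19.7 and 20.9 FPKM in HG and 2.04, 4.73 and 3.46 FPKM in CG (log2FC 2.30, adjusted p = 0.00301). comtb (MSTRG.5180), a catechol O-methyltransferase, had 94.0, 107 and 95.9 FPKM in HG and 31.8, 36.4 and 31.9 FPKM in CG (log2FC 1.54, adjusted p = 0.00397). All 3 were apart between the groups. A second locus named hnmt (MSTRG.7843) overlapped, with 4.51 to 10.1 FPKM in HG and 3.81 to 6.02 FPKM in CG (adjusted p = 0.519).

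Of 15 tested loci of deconjugation and the mercapturate steps 2 were higher and none lower. gusb (MSTRG.19539), the lysosomal beta-glucuronidase that removes glucuronic acid, had a log2FC of 1.07 at this locus (10.8 to 11.7 FPKM in HG, 4.50 to 5.07 FPKM in CG, adjusted p = 0.00901 from limma). The copies of gusb differed. The most abundant, MSTRG.19538, had 81.8, 59.7 and 98.4 FPKM in HG and 386, 115 and 148 FPKM in CG, with every HG library below every CG library, and did not pass (log2FC -1.25, adjusted p = 0.106 from limma). Another copy, MSTRG.19509, had 2.25 to 5.86 FPKM in HG and 1.03 to 1.71 FPKM in CG and did not pass (log2FC 0.86, adjusted p = 0.108). acy1 (MSTRG.17532), an aminoacylase, had a log2FC of 1.06 (25.9 to 33.0 FPKM in HG, 12.7 to 16.5 FPKM in CG, adjusted p = 0.0183).

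Transporters that can carry conjugates or drugs out of cells went in both directions, with 2 higher and 1 lower of 15. slc47a1 (MSTRG.9336), an exporter of organic cations, had 18.1, 25.9 and 30.2 FPKM in HG and 0.52, 2.99 and 0.54 FPKM in CG (log2FC 3.58, SE 0.42, adjusted p = 0.00314 from limma). The slc47a1 copy next in level, MSTRG.10650, had 1.59 to 2.12 FPKM in HG and 2.13 to 3.07 FPKM in CG and did not pass (adjusted p = 0.362). Of 3 tested loci named abcc4, an exporter of organic anions, 1 was higher (MSTRG.3471, log2FC 1.05, 3.30 to 4.93 FPKM in HG, 1.14 to 1.70 FPKM in CG, adjusted p = 0.0167). The copy MSTRG.3473, of like level, was below CG in all HG libraries, with 1.70 to 2.62 FPKM in HG and 2.97 to 3.29 FPKM in CG, and did not pass (log2FC -0.41, adjusted p = 0.166). The remaining tested copy, MSTRG.3472, overlapped (2.08 to 3.24 FPKM in HG, 0.58 to 2.56 FPKM in CG, adjusted p = 0.365). abcg2a (MSTRG.19981), whose mammalian counterpart exports sulfate conjugates, was lower, with 4.72 to 5.94 FPKM in HG and 9.04 to 22.0 FPKM in CG (log2FC -1.31, adjusted p = 0.0328).

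**Figure D5:**
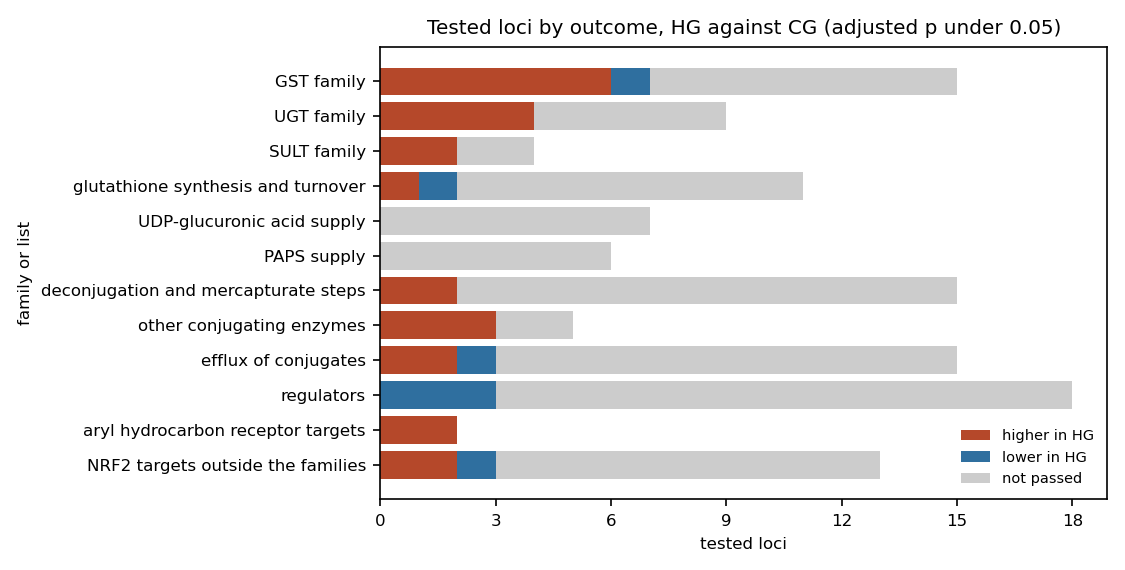
Number of tested loci that were higher in HG, lower in HG or did not pass (adjusted p under 0.05 from limma) in the 3 families and in 9 lists of related genes. The GST, UGT and SULT families show 6, 4 and 2 higher loci, the lists of UDP-glucuronic acid and PAPS supply none, and the regulators 3 lower loci and none higher.

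Among 18 tested loci of regulators of these families 3 were lower and none higher, a share of lower loci also near that of all tested loci. They were the 2 maff loci, a small Maf protein that pairs with NRF2 and related factors, and arnt2, a partner of the aryl hydrocarbon receptor family. maff (MSTRG.1204) had 4.36, 4.10 and 5.99 FPKM in HG and 34.7, 15.2 and 11.0 FPKM in CG (log2FC -1.73, adjusted p = 0.0299 from limma), and the other maff locus (MSTRG.1203) had a log2FC of -1.59 (adjusted p = 0.0235). arnt2 (MSTRG.13156) had 1.37, 4.22 and 3.37 FPKM in HG and 8.46, 8.84 and 6.66 FPKM in CG (log2FC -1.24, adjusted p = 0.0381). In 9 of the 18 regulator loci every HG library lay below every CG library, and in 3 above. Over all tested loci these shares were 27.0% and 16.5%. The 3 above were ahr1b (MSTRG.21087), nr1i2 (MSTRG.15781) and nr1h4 (MSTRG.2973), named here after their values were seen. Their log2FC was 0.99, 0.85 and 0.69, and none passed (adjusted p = 0.101, 0.153 and 0.119 from limma). Of these, ahr1b reached the minimum FPKM only through its HG values.

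Targets of the aryl hydrocarbon receptor were higher in 2 of 2 tested loci, of 7 in the list. cyp1a (MSTRG.278), the oxidizing enzyme most used as a sign of receptor activity in fish, had 25.9, 33.0 and 21.4 FPKM in HG and 3.29, 2.87 and 2.87 FPKM in CG (log2FC 2.77, SE 0.22, adjusted p = 0.00123 from limma). nqo1 (MSTRG.391), a quinone reductase that also stands in the NRF2 list, had 26.9, 25.0 and 25.6 FPKM in HG and 6.97, 11.6 and 8.77 FPKM in CG (log2FC 1.43, adjusted p = 0.00847). Both were without overlap.

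NRF2 targets outside the families went in both directions, with 2 higher and 1 lower of 13 tested loci. Beside nqo1, me1 (MSTRG.16359), a malic enzyme that makes NADPH, was higher, with 8.03, 7.0 and 24.2 FPKM in HG and 0.71, 2.1 and 1.47 FPKM in CG (log2FC 2.37, adjusted p = 0.0168 from limma). HG-3 stood far above the other HG libraries. prdx1 (MSTRG.16137), a peroxide-removing enzyme, was lower, with 2.61, 0.55 and 3.46 FPKM in HG and 58.5, 43.9 and 24.0 FPKM in CG (log2FC -3.79, SE 0.49, adjusted p = 0.00406).

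Markers of several cell types differed between the groups. Their counts stand beside the 8.27% higher and 12.1% lower calls of all tested loci. Of 22 tested hepatocyte marker loci 6 were higher and 1 lower, and their summed level was 64266 to 76560 FPKM in HG and 32525 to 49218 FPKM in CG, so the liver label was met in all libraries. This sum itself differed between the groups, so a share of it is not a level per hepatocyte. Set against this sum, GST made up 1.53 to 2.06% in HG and 0.885 to 1.40% in CG and did not overlap. The UGT sum made up 0.167 to 0.273% in HG and 0.205 to 0.234% in CG, and the SULT sum 0.0833 to 0.131% in HG and 0.102 to 0.131% in CG, and both overlapped. Exocrine pancreas markers were lower in 8 of 9 tested loci, with a sum of 289 to 1630 FPKM in HG and 2993 to 6238 FPKM in CG. Of 9 bile duct loci 4 were lower and 1 higher, with a sum of 230 to 301 FPKM in HG and 619 to 722 FPKM in CG, and 4 of 9 endothelial loci were lower, with a sum of 25.0 to 29.9 FPKM in HG and 55.2 to 65.7 FPKM in CG. Few or no loci were called in the other lists: leukocyte 1 higher and 1 lower of 13, erythrocyte 1 higher of 4, and none of 7 stellate cell and fibroblast, 2 intestine and 1 kidney loci. No locus of these lists was at 0 in all 6 libraries, but this held for all 31872 loci and tells nothing about these lists. The part of these cell types in the results was not tested.

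The summed FPKM of a library was 459912 to 493870. Pearson's r between libraries over log2 values of the tested loci was 0.868 to 0.918 within HG, 0.873 to 0.901 within CG and 0.661 to 0.785 between the groups. Depth relative to the deepest library, judged from the steps between the lowest values of 357 to 806 loci, was 71.1 to 93.4% in HG and 74.0 to 100% in CG, so that depth ranges of the groups overlapped.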

How the data were processed

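Paired-end reads of poly(A) RNA from 6 liver libraries were mapped with HISAT, assembled with StringTie and quantified by the authors as FPKM, without stated versions or genome build, and this table was deposited. No coordinates or sequences are given here. FPKM values were used as deposited, as log2(FPKM + 1) without further scaling. Loci whose mean FPKM reached 1 were compared between HG and CG with limma 3.58.1 in R 4.3.3 (trend; 2.86 prior degrees of freedom; two-sided p, Benjamini-Hochberg adjustment over 16423 loci). The procedure was tested on simulated data with independent noise, in which few loci changed and by more than most members did here. That setting differs from these data, so it does not check the calls of smaller changes. Other steps used Python 3.11.15, numpy 2.4.6, pandas 2.3.3 and matplotlib 3.10.9.

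Named genes were the members with an adjusted p under 0.05, the 3 most abundant members of each family, copies under one name and, in each list, up to 3 passing loci with the largest change. The other members are named to account for all 34. Further copies of named list genes and some other list loci were added after their values were seen. Members and lists were chosen with earlier results of these data known. The 17 alternatives were other pseudocounts, minimum levels, scalings and variance models, a Ballgown-style model, the replicate number as blocking factor, omission of each library in turn and a fold threshold. The paper gives the read number of each library, while depth was judged here in relative terms from the deposited values.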

Additional observations from a re-analysis of the deposited data

How the results depend on the processing

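Across 16 refits no called member changed sign. gstt1a (both loci), gstt1b, ugt8 and sult1st6 kept an adjusted p under 0.05 in every refit that tested them except the Ballgown-style linear model, and gstt2 lost it there and with the replicate block. The Ballgown-style model called 0 loci higher and 0 lower over all tested loci and in each family (GST 0 higher and 0 lower, UGT 0, SULT 0), with 2618 loci at an unadjusted p under 0.05. With no minimum, GST lower calls fell to 0 and SULT lower calls were 1 (sult5a1). With a mean of at least 10 FPKM only 3319 loci were tested, of which 634 were higher and 770 lower, larger shares than in the main fit. Of the 17 members tested there 9 were higher and 1 lower, with GST higher calls 7, UGT 2 and SULT 0. Median-of-ratios scaling and quantile normalization left GST lower calls at 0. The first moved the median log2FC of all tested loci from -0.14 to 0.01 and the share of higher among all calls from 40.6% to 53.3%, and gave 15 higher and 0 lower members. Deviations from the group mean correlated at 0.04, -0.10 and -0.08 between HG and CG libraries of numbers 1, 2 and 3. Deviations from a mean of 3 libraries depend on each other, so these values cannot decide whether the replicate numbers pair the samples. With the replicate block, calls were 867 higher and 1093 lower over all loci. Among the members 10 were higher and 0 lower, with GST lower calls 0. Leaving out one library gave 784 to 970 higher and 804 to 1434 lower calls over all loci, 6 to 12 higher members, 0 to 1 GST lower, 1 to 4 UGT higher and 1 to 2 SULT higher calls. At a log2FC of at least 1 in size, 11 members were higher and 1 lower. The causes of the other changes were not tested. With 3 libraries a group and no read counts of single loci, a change of a low locus such as sult6b1 could not be resolved.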

Other observations

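A further 22 loci carried a KEGG orthology entry of these families in the deposited table without a matching gene name. They were looked at after the values of the members had been seen, so they are given as values with no test. The entries of these loci were taken as deposited and were not checked. Of the 12 with a mean of at least 1 FPKM, all HG libraries lay above all CG libraries in 8 and below in 1, beside 16.5% above and 27.0% below over all tested loci. Of the 8, MSTRG.3677 and MSTRG.1692 reached this mean only through their HG values, and the 1 below, MSTRG.1689, only through its CG values. The most abundant of those above was si:dkey-40m6.14 (MSTRG.13273), annotated as a kappa-class GST, a class found in mitochondria and peroxisomes in mammals, with 79.4, 131 and 112 FPKM in HG and 8.41, 21.3 and 17.6 FPKM in CG. MSTRG.904, annotated as a GST, was next in level among the 22 and overlapped between the groups. It had 75.1, 45.8 and 41.7 FPKM in HG, against 58.9, 67.7 and 64.7 FPKM in CG. Neither MSTRG.904 nor MSTRG.13273 was part of the summed GST level above, which held the named members only. All 4 UGT-annotated loci whose mean reached 1 FPKM were above CG. The most abundant of these was MSTRG.21301, with 17.3, 19.9 and 18.8 FPKM in HG and 1.76, 4.11 and 6.92 FPKM in CG. Among 5 SULT-annotated loci, MSTRG.1688 had 8.06, 5.58 and 6.37 FPKM in HG and 0.29, 1.39 and 1.47 FPKM in CG, whereas MSTRG.1689 had 0.21, 0.26 and 0.24 FPKM in HG and 7.22, 4.08 and 2.21 FPKM in CG. These 2 loci of one annotated family thus went in opposite directions, and reads shared between them cannot be told apart from the files.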
